A study of Mus musculus with 10 samples.

Results

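The genes described here encode 10 enzymes that write or remove methyl groups on lysine 9 of histone H3 (H3K9). They were taken as a fixed list from 26180 curated RefSeq genes on mouse chromosomes 1 to 19, X and Y, and comprise the methyltransferase genes Ehmt1, Ehmt2, Setdb1 and Suv39h2, the KDM3 family genes Kdm3a, Kdm3b and Jmjd1c, and the KDM4 family genes Kdm4a, Kdm4b and Kdm4c. A peak was assigned to a gene when its midpoint lay in the gene body or within 30 kb of a transcription start site (TSS), which is called the window below. The rule uses gene names only, but the list was chosen with earlier results of these data known. All 10 genes were found in the annotation.

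EHMT1 and EHMT2 (also known as GLP and G9a) act as a pair that places mono- and dimethylation on H3K9 in euchromatin, whereas SETDB1 and SUV39H2 are known for trimethylation in silenced chromatin. KDM3 enzymes remove the mono- and dimethyl forms and KDM4 enzymes act on the tri- and dimethyl forms, both with iron and 2-oxoglutarate as cofactors. The lysine-specific demethylase LSD1 removes mono- and dimethylation with a flavin cofactor and is encoded by a separate gene, Kdm1a, while the glucocorticoid receptor (GR) is a transcription factor activated by glucocorticoids, the hormones that increase during starvation.

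Chromatin immunoprecipitation sequencing had been performed on skeletal muscle of C57BL/6J mice labelled as 10 weeks of age, either fed or starved for 24 h. Antibodies to GR, LSD1, H3K9me1 and H3K9me2 gave 1 library each per condition, and 1 input library per condition served as the control in peak calling. No allele or other agent was labelled in any group. Each comparison between conditions is therefore between single libraries, without a spread between replicates and without a test. The lists held from 6624 peaks (H3K9me2 starved) to 171402 peaks (H3K9me2 fed), the depth of the libraries is unknown, and every list extended to q-values above 0.09. The extraction protocols in the labels carry 1 of 2 library codes, which was shared within the GR pair and within the LSD1 pair. The code of GR differed from that of LSD1, so protein and code cannot be told apart between them. Both inputs carried the code of GR, so LSD1 and the starved marks were compared with an input of the other code. For both H3K9 marks the codes differed between fed and starved, so condition and code cannot be told apart there. As a check of the tissue, 6 of 8 skeletal muscle genes (such as Ckm, Des and Ttn) and 0 of 6 genes of other tissues had a GR or LSD1 promoter peak in at least 1 list, where 37.4% of all genes had one.

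GR and LSD1 peaks lay near most of the H3K9 enzyme genes. In fed muscle, 9 of the 10 genes had at least 1 GR peak in the window, where 43.1% of all RefSeq genes did, and 8 had an LSD1 peak, where 51.1% of all genes did. After starvation, GR had a peak at 9 of them against 66.5% of all genes, and LSD1 at 9 against 83.7% of all genes. Windows of these genes were longer, with a median of 88.1 kb (60.0 to 193.4 kb) against 60.0 kb over all genes. With the window limited to 30 kb on each side of a TSS, the fed counts were still 9 genes for GR and 8 for LSD1, and the shares of all genes were 40.9% and 49.6%. Within 10 kb of a TSS, 8 genes had a fed GR peak and 8 a fed LSD1 peak, where 26.7% and 36.6% of all genes did. The median over the 10 genes was 2 GR peaks in fed and 4 in starved muscle, beside 0 and 1 over all genes, and 2 LSD1 peaks in either condition, beside 1 in fed and 2 in starved muscle over all genes. The median width of these TSS windows was 60.0 kb and 20.0 kb both for the enzyme genes and for all genes, although 4 of the enzyme genes have more than 1 TSS and so windows of up to 118.7 kb and 40.2 kb. Peaks were also counted only where the nearest TSS was that of the gene. Then 7 genes had a fed GR peak and 8 a fed LSD1 peak, beside 25.9% and 32.3% of all genes. Neither Ehmt1 nor Ehmt2 had a GR peak of either condition by that count. The fed counts of both proteins thus stood above the share over all genes in each window, while the LSD1 starved count was close to it.

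**Figure D1:**
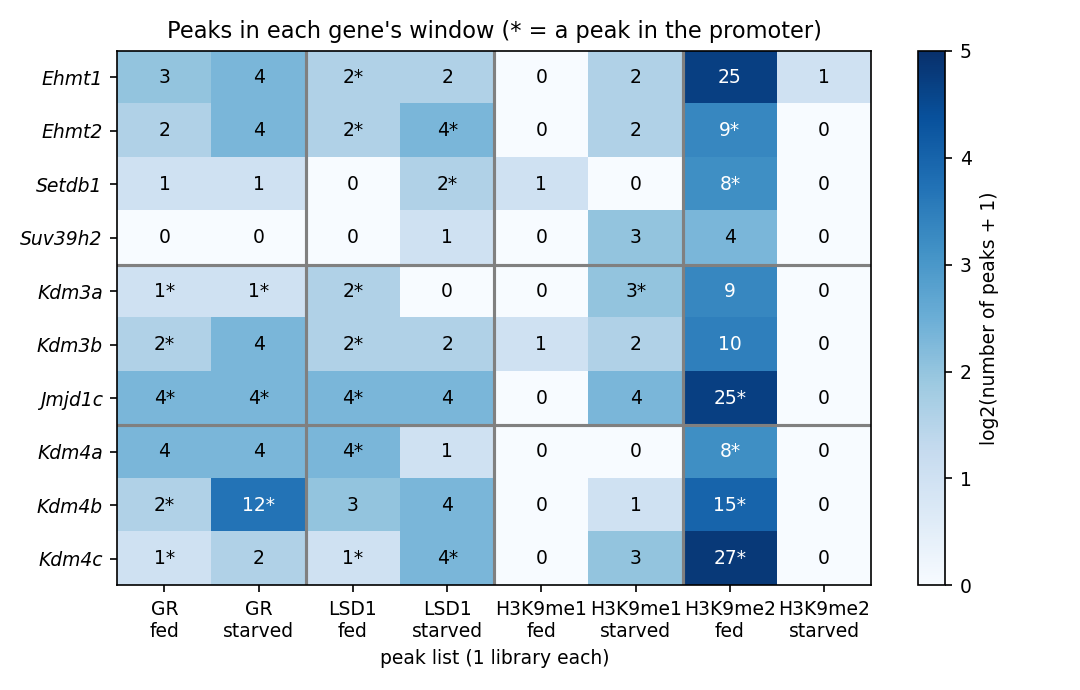
Number of peaks in the window of each gene (rows) in each of the 8 peak lists (columns, 1 library each), with colour on a log2(number + 1) scale and an asterisk where the promoter held a peak. H3K9me2 fed is the darkest column, with 4 to 27 peaks per gene. H3K9me2 starved is empty except for 1 peak at Ehmt1, and 12 GR starved peaks stand out at Kdm4b.

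A promoter was taken to span the 1000 bp before a TSS and the 100 bp after it. A peak at any curated TSS of a gene counted, and 4 of the 10 genes (Ehmt2, Kdm3a, Jmjd1c and Kdm4c) have more than 1. Counted by their centres, more of the 10 promoters held a peak in fed than in starved muscle, for GR and for LSD1. A GR peak was centred on the promoter of 5 genes in fed muscle (Kdm3a, Kdm3b, Jmjd1c, Kdm4b and Kdm4c), where 13.4% of all genes had one, and on 3 promoters in starved muscle (Kdm3a, Jmjd1c and Kdm4b), against 23.3% of all genes. LSD1 peaks were centred on 7 promoters in fed muscle (Ehmt1, Ehmt2, Kdm3a, Kdm3b, Jmjd1c, Kdm4a and Kdm4c), beside 22.4% of all genes, and on 3 in starved muscle (Ehmt2, Setdb1 and Kdm4c), beside 16.2% of all genes. Both proteins had a promoter peak at Kdm3a, Kdm3b, Jmjd1c and Kdm4c in fed muscle, that is at 4 genes where 9.34% of all genes had both. In starved muscle no enzyme gene had both, where 9.17% of all genes did. These starved counts depend on where a peak is centred. Counted by overlap with at least 1 base, the direction turned for GR, with 5 promoters reached in fed muscle (16.0% of all genes) and 7 in starved muscle (28.9%), namely Setdb1 and all 6 demethylase genes. By overlap, a joint count added after the values were seen, both proteins reached 4 promoters in fed muscle (12% of all genes) and 2 in starved muscle, those of Setdb1 and Kdm4c (12.2%). The LSD1 counts were 7 and 3 by either rule.

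**Figure D2:**
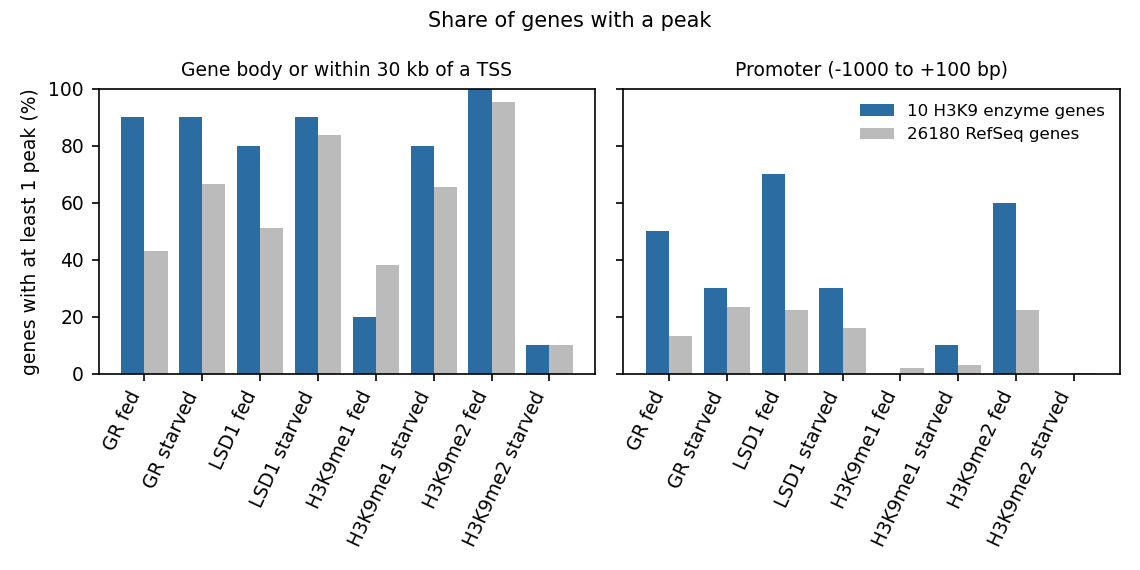
Percent of genes with at least 1 peak in the window (left) and in the promoter (right), for the 10 H3K9 enzyme genes (blue) and all 26180 RefSeq genes (grey), by peak list. The blue bars stand above the grey ones for GR fed and LSD1 fed in both panels, and below them for H3K9me1 fed.

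Among the methyltransferase genes, none had a GR peak centred on its promoter. Ehmt1 (chr2:24790769-24919609, minus strand) had 3 GR peaks in fed muscle, 4 in starved muscle, and 2 LSD1 peaks in each condition. Its highest GR fed peak, of 3.63-fold over input, lay in exon 19 of its longest curated transcript at chr2:24806276-24806412, where LSD1 fed also had a peak of 4.34-fold. Neither protein had a starved peak there. In starved muscle the highest GR peak lay in intron 24, with 2.87-fold, and the highest LSD1 peak in intron 15, with 3.51-fold. The Ehmt1 promoter held an LSD1 fed peak of 3.44-fold, centred 186 bp upstream of the TSS, with a q-value of 0.0701. The remaining GR peaks of Ehmt1, 2 fed and 3 starved, lay 8.33 to 16.0 kb upstream, nearer to the TSS of Arrdc1 than to that of Ehmt1.

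Ehmt2 (chr17:34898474-34914073, plus strand) had 2 GR peaks in fed and 4 in starved muscle, and the same numbers for LSD1. One site carried a peak in all 4 of these lists, at chr17:34893221-34894694, and it lay in the promoter of the neighbouring gene Zbtb12. The folds there were 3.06 in fed and 2.76 in starved muscle for GR, and 4.65 and 4.56 for LSD1, so the LSD1 values of the 2 conditions were close at this site. The highest GR peaks of the window, 3.5-fold in fed and 3.05-fold in starved muscle, lay in the body of another neighbour, Slc44a4, past the 3′ end of Ehmt2. At its own TSS, Ehmt2 had an LSD1 fed peak of 4.27-fold, centred 22 bp downstream. An LSD1 starved peak of 3.52-fold followed it without overlap, in intron 1. No GR peak was centred on the promoter of Ehmt2.

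Setdb1 (chr3:95323525-95357202, minus strand) had 1 GR fed peak of 2.88-fold in intron 1, 899 bp downstream of the TSS, and 1 GR starved peak of 2.54-fold in the same intron, 221 bp downstream. The pair did not overlap. It had no LSD1 fed peak, but 2 LSD1 starved peaks in the promoter, of 3.75-fold at the TSS, where the GR starved peak overlapped it, and of 3.73-fold 770 bp upstream. Suv39h2 (chr2:3455815-3474986, minus strand) was the enzyme gene with the fewest peaks. No GR peak of either condition and no LSD1 fed peak was centred in its window, and its only LSD1 peak, in starved muscle, was 49 bp long in intron 2 with 3.16-fold and a q-value of 0.07.

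The KDM3 family genes all had GR and LSD1 at the promoter in fed muscle. Kdm3a (chr6:71588970-71632917, minus strand) had no GR or LSD1 peak outside its promoter. GR was centred 527 bp upstream of its first TSS with 2.89-fold in fed muscle, and 262 bp upstream with 2.31-fold in starved muscle. LSD1 fed overlapped the fed GR peak with 4.45-fold and had a second peak of 3.48-fold at its next TSS. No LSD1 starved peak was centred in its window. The fed GR peak held 2 near matches to the motif of nuclear respiratory factor 1 (NRF1), a factor that binds GC-rich promoters, each with 1 mismatch to GCGCATGCGC. Counted from the 5′ end of the motif, on the strand of the gene, the mismatches were A5C at chr6:71633564-71633573 and A5G at chr6:71633501-71633510. The GR-occupied stretch is shown because both near matches lie in it (GRCm38, chr6:71633310-71633609, minus strand, near matches in capitals):
Kdm3a upstream: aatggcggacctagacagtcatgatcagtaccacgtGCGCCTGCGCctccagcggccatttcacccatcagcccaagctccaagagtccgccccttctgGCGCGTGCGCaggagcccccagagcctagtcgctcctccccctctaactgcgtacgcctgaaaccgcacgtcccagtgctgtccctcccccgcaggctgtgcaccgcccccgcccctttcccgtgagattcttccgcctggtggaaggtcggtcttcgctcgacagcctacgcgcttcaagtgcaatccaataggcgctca

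Kdm3b (chromosome 18, plus strand, 62.4 kb) had 2 GR peaks in fed and 4 in starved muscle, and 2 LSD1 peaks in each. At the TSS, GR fed had 3.10-fold and LSD1 fed 4.86-fold, the highest LSD1 fed value of the KDM3 genes. GR starved overlapped this site with 2.51-fold, centred 111 bp downstream of the TSS and so just outside the promoter as defined here. A second GR fed peak of 3.19-fold, the higher of the pair, lay 922 bp downstream in intron 1, and intron 1 held 2 further GR starved peaks, of 2.54-fold and 2.94-fold. The last GR starved peak, of 2.78-fold, lay in the promoter of Cdc25c, 25.3 kb upstream. The LSD1 starved peaks, of 3.35-fold and 3.38-fold, lay 20.6 and 17.3 kb upstream, next to Fam53c and the microRNA gene Mir12191, and an LSD1 fed peak of 3.81-fold overlapped the nearer one.

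Jmjd1c (chr10:67127088-67256326, plus strand) had 4 peaks in each of the 4 GR and LSD1 lists. Its upstream promoter held the highest promoter peak of GR in the set, at chr10:67126404-67126636, with 6.06-fold and a q-value of 5.26e-23 in fed muscle, centred 568 bp upstream of the TSS. The overlapping peaks were 3.10-fold in GR starved and 4.31-fold in LSD1 fed. LSD1 starved had none. The GR starved peak was 925 bp long and ran over the TSS, whereas the fed peak was 233 bp long. At the second curated TSS, 58.7 kb into the gene, GR fed (3.33-fold), GR starved (2.74-fold) and LSD1 fed (4.21-fold) again overlapped without LSD1 starved. Another site, in exon 10 at chr10:67226218-67226523, carried all 4 peaks. The folds were 3.38 in fed and 2.50 in starved muscle for GR, and 4.11 and 3.08 for LSD1. Its starved peaks were near the bottom of their lists by fold, with rank 34815 of 37783 for GR and 64832 of 66332 for LSD1. The highest LSD1 peaks of the gene were intronic and alone, with 4.52-fold in intron 2 in fed muscle and 3.49-fold in intron 3 in starved muscle.

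Kdm4a (chr4:118137004-118180043, minus strand) carried the highest GR peaks of the set, inside the gene. Within introns 12 and 13 of its longest curated transcript lay 3 sites, each with a peak in GR fed, GR starved and LSD1 fed and none in LSD1 starved. The highest of them, at chr4:118147484-118147983 and 32.3 kb downstream of the TSS, had 7.21-fold in GR fed with a q-value of 6.5e-26, 4.68-fold in GR starved with 3.7e-13, and 4.57-fold in LSD1 fed with 0.000884. The fold of 7.21 ranked 444 of the 14108 GR fed peaks, and 4.68 ranked 861 of the 37783 GR starved peaks. The site at chr4:118150421-118150651 had 4.58-fold (GR fed), 3.05-fold (GR starved) and 4.54-fold (LSD1 fed), and the last one, also in intron 12, had 3.33-fold, 2.73-fold and 4.35-fold. GR was thus highest at the first site, while the LSD1 fed folds of the 3 sites ranged only from 4.35 to 4.57. At the promoter, LSD1 fed had a short peak of 5.38-fold, the highest LSD1 fed peak of the set, 55 bp long and centred 179 bp upstream. GR starved had a peak of 2.61-fold over the TSS, centred 103 bp downstream. The only LSD1 starved peak, of 3.54-fold, lay in intron 8.
The first 2 intronic sites are shown because they hold the highest intronic GR peaks of the gene (GRCm38, plus strand, at chr4:118147605-118147819 and chr4:118150421-118150651). Capitals mark the closest match to the GR palindrome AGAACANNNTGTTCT, with 2 mismatches at the first site (C14T and T15C, counted from the 5′ end of the palindrome) and no match within 2 mismatches at the second:
Kdm4a intron 13: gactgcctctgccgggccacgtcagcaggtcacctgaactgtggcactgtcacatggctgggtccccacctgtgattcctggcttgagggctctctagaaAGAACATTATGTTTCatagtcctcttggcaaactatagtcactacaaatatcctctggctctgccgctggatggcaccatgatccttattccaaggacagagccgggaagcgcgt
Kdm4a intron 12: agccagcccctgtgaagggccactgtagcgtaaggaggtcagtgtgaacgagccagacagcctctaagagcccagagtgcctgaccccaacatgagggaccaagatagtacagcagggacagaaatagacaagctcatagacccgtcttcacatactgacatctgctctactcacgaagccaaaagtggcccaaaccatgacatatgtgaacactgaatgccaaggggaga

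Kdm4b (chr17:56326050-56403774, plus strand) had 2 GR fed peaks and 12 GR starved peaks, the largest difference in GR peak number between conditions among the 10 genes. Both fed peaks were overlapped by starved ones. The first, in the promoter and centred 190 bp upstream, had 3.81-fold in fed and 2.60-fold in starved muscle. The second, in intron 7 at chr17:56374839-56375177, had 5.40-fold in fed muscle with a q-value of 5.43e-11, 3.11-fold in starved muscle, and 4.11-fold in LSD1 fed. The other 10 GR starved peaks had folds of 2.54 to 3.30, with 2 of them in the neighbouring gene Uhrf1 and 8 in introns of Kdm4b. The highest GR starved value of the window was one in Uhrf1, with 3.30-fold, close to 3.29-fold in intron 21 of Kdm4b. At a q-value of 0.01 or less, 5 of the 12 starved peaks and both fed peaks remained. LSD1 fed had 3 peaks, with the highest, 4.16-fold, at the Uhrf1 promoter, and LSD1 starved had 4 intronic peaks of 3.09 to 3.45-fold, none of which overlapped an LSD1 fed or a GR peak.
The intron 7 site is shown because it held the second highest GR fed peak within an intron of these genes and a match to the same palindrome with 2 mismatches, A3G and T15C, in capitals (GRCm38, chr17:56374848-56375062, plus strand):
Kdm4b intron 7: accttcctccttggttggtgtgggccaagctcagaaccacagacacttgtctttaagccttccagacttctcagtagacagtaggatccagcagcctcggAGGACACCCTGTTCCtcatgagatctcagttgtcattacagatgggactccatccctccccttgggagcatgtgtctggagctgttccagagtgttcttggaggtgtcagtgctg

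Kdm4c (chr4:74242497-74405864, plus strand) is the longest of the 10 genes, with 163.4 kb, but held only 1 GR peak in fed and 2 in starved muscle, and 1 and 4 LSD1 peaks. One site had a peak in all 4 lists, at the second curated TSS, which lies 9.38 kb into intron 1 of the longest transcript. The folds were 3.13 in fed and 2.85 in starved muscle for GR, and 4.13 and 3.69 for LSD1. At the first TSS no GR or LSD1 peak was called. The GR starved peak at the second TSS was centred 283 bp downstream, outside the promoter as defined here. By overlap, Kdm4c was the only gene of the set with all 4 peaks in its promoter, where 6.12% of all genes had all 4. The highest LSD1 starved peak of the window was 4.81-fold, 49 bp long and 25.9 kb upstream of the first TSS. The second promoter held 2 near matches to the NRF1 motif, both with the mismatch A5G, one on each side of the TSS, and the 250 bases before the TSS are shown with the upstream one in capitals (GRCm38, chr4:74251629-74251878, plus strand):
Kdm4c upstream: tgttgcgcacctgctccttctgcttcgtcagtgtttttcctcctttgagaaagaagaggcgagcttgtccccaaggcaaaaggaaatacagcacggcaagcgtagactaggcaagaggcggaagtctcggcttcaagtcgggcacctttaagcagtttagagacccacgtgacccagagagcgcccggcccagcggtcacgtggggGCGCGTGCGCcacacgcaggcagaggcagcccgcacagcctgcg

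**Figure D3:**
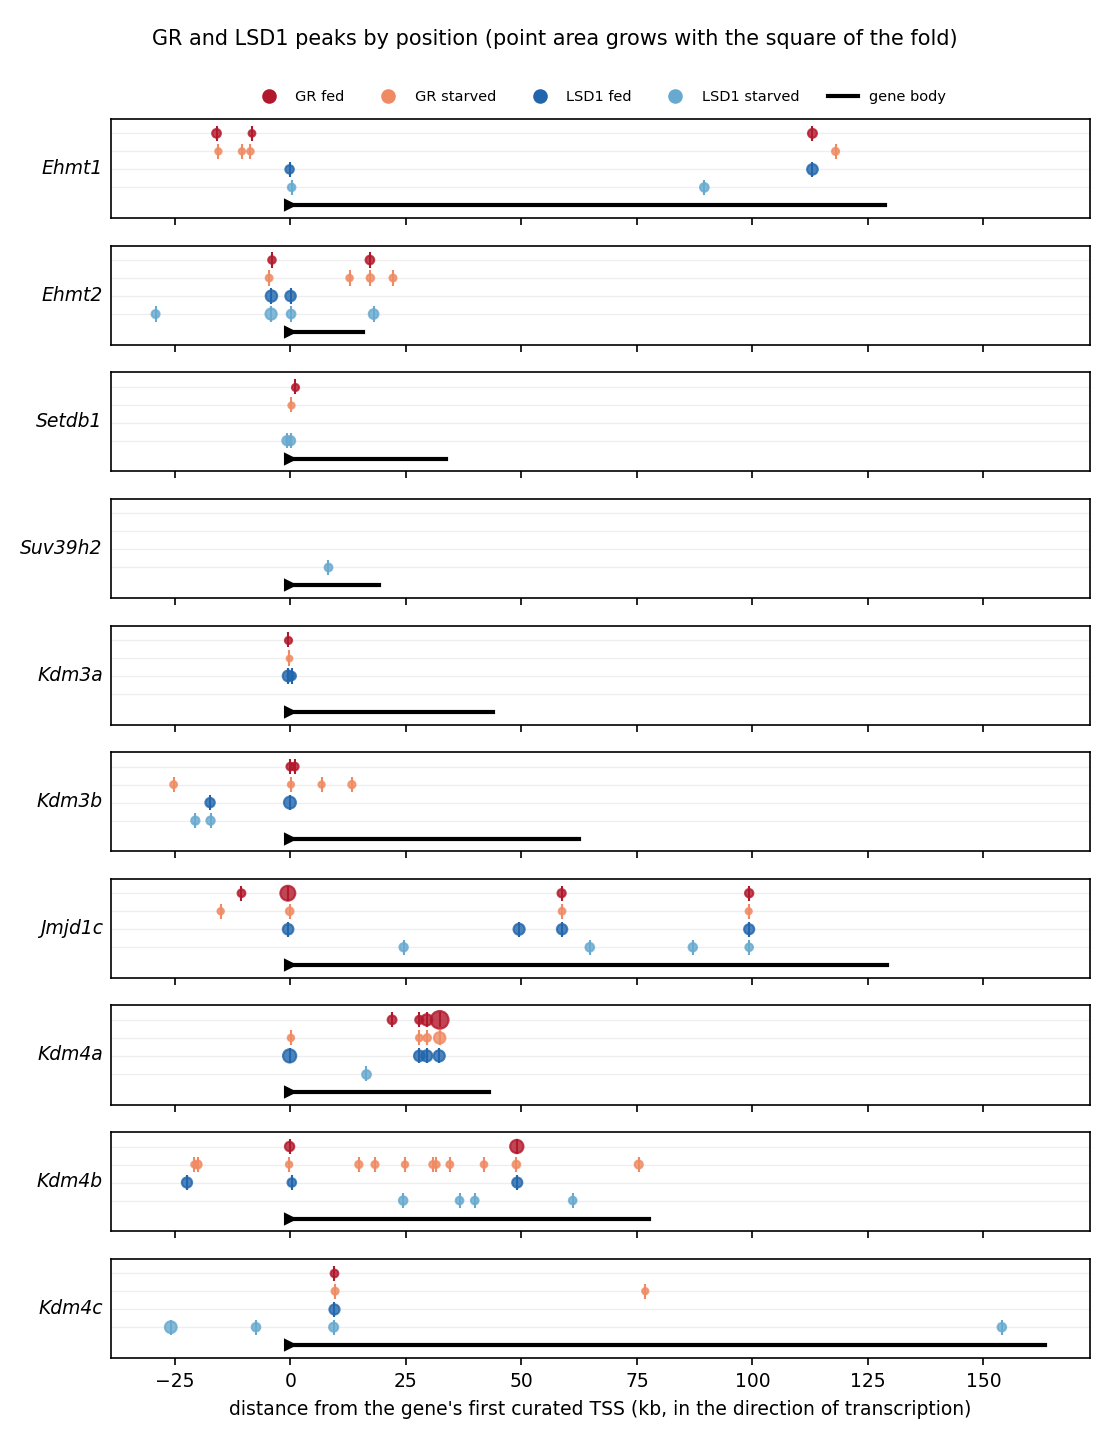
Position of each GR and LSD1 peak relative to the first curated TSS of its gene, in kb along the direction of transcription, with 1 line of points per peak list and the gene body as a black bar. The larger GR fed points lie at the start of Jmjd1c and inside Kdm4a and Kdm4b, with LSD1 fed points at the same positions, and the 10 GR starved points without a fed partner in the row of Kdm4b comprise 8 along its body and 2 upstream of it, in Uhrf1.

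Merged across the 4 lists, the GR and LSD1 peaks of the 10 genes formed 67 sites, of which 48 had a peak in 1 list only. GR starved alone accounted for 19 of them and LSD1 starved alone for another 19, against 4 for GR fed alone and 6 for LSD1 fed alone. The whole starved lists were also longer than the fed ones, 2.68 times for GR and 3.99 times for LSD1. Site patterns were not counted over all genes, so these numbers have no share beside them. The most frequent shared pattern, at 8 sites, was GR fed, GR starved and LSD1 fed without LSD1 starved, and 3 sites had all 4 peaks (in the promoter of Zbtb12 beside Ehmt2, in exon 10 of Jmjd1c and at the second TSS of Kdm4c). Part of each count belonged to neighbours, since another gene had the nearest TSS for 9 of the 20 fed and 17 of the 36 starved GR peaks, and for 8 of the 20 fed and 7 of the 24 starved LSD1 peaks. For the 3 sites in introns 12 and 13 of Kdm4a that TSS was the one of St3gal3, and for intron 7 of Kdm4b the one of the microRNA gene Mir6977.

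The GR palindrome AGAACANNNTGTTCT, which consists of 2 inverted half-sites with a 3-base spacer and is its own reverse complement, had no match with at most 1 mismatch in any GR or LSD1 peak of the 10 genes, beside 2.17% of all GR fed peaks and 0.712% of all GR starved peaks. With at most 2 mismatches, a search added after the values were seen, 2 of the 20 GR fed peaks held a match, namely those in intron 13 of Kdm4a and intron 7 of Kdm4b, beside 9.75% of all GR fed peaks. These ranked 1 and 3 of the 20 by fold, and among all GR fed peaks of at least 5-fold 29.8% held such a match. The same 2 sites gave the matches in GR starved, 2 of 36 peaks beside 4.33% of the list. Among the LSD1 peaks, 1 of 20 fed peaks held one, beside 2.27% of the list, and 3 of 24 starved peaks, beside 0.841%, at the Setdb1 promoter, upstream of Kdm3b and in intron 3 of Jmjd1c. No match says only that these letters are not in these peaks. The NRF1 motif GCGCATGCGC, also its own reverse complement, had no exact match in the peaks. With 1 mismatch it occurred in 3 of the 20 GR fed peaks (at Kdm3a, at Kdm4c and in the promoter of Zbtb12 beside Ehmt2), beside 4.44% of all GR fed peaks, and in 2 of the 20 LSD1 fed peaks (Kdm3a and Kdm4c), beside 4.89%. In starved muscle it occurred in 1 of 36 GR peaks, beside 3.56% of the list, and in 1 of 24 LSD1 peaks, beside 0.771%. Of 32851 RefSeq promoters, 5.20% held it in the 250 bases before the TSS, as did 3 of the 13 promoters listed for these genes (one each of Ehmt1, Suv39h2 and Kdm4c).

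Where fed and starved peaks of GR overlapped, the fed fold was the higher one at all 15 sites, over 8 genes. Starved folds were 0.511 to 0.962 of the fed ones, with a median of 0.80, and the lowest ratio was that of the Jmjd1c promoter. Over all 9287 such pairs in the lists, the fed fold was higher in 78.8% and the median ratio was 0.877. For LSD1 only 4 sites were paired, all with a higher fed fold, namely at Zbtb12 beside Ehmt2, the upstream site of Kdm3b, exon 10 of Jmjd1c and the second TSS of Kdm4c, with starved folds at 0.98, 0.886, 0.75 and 0.894 of the fed ones, beside a median of 0.853 over 3834 pairs. Folds of 2 single libraries depend on depth and on each input, and the part of these in the ratios was not tested.

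**Figure D4:**
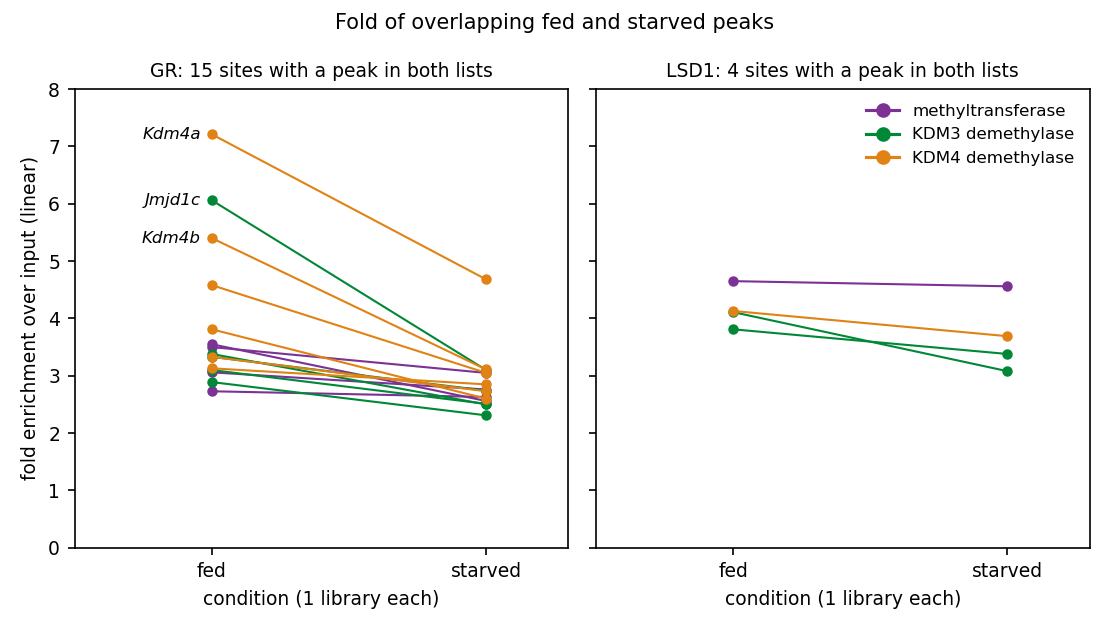
Fold enrichment over input, on a linear axis from 0, of fed and starved peaks that overlapped, for GR (left, 15 sites) and LSD1 (right, 4 sites), with 1 line per site coloured by enzyme family. Every line descends from fed to starved, most at Kdm4a, Jmjd1c and Kdm4b among the GR sites.

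In number, by contrast, GR had more peaks in starved muscle. Its peaks in the 10 windows numbered 20 in the fed and 36 in the starved list, a ratio of 1.80 (exact Clopper-Pearson 95% interval from counting alone, 1.01 to 3.28), where the whole lists had a ratio of 2.68. More starved than fed GR peaks were found at 5 genes (Ehmt1, Ehmt2, Kdm3b, Kdm4b and Kdm4c), equal numbers at 5 and fewer at none, where 56.4% of all genes had more, 39.3% equal and 4.26% fewer. Kdm4b alone contributed 10 of the 16 additional peaks. The direction turned at a q-value of 0.01 or less, with 16 fed and 14 starved peaks, a ratio of 0.875, while the whole lists kept a ratio of 1.32. LSD1 had 20 fed and 24 starved peaks, a ratio of 1.20 (0.635 to 2.29), where the whole lists had 3.99. The study itself reports a marked decrease in LSD1 peak number after starvation, opposite to the whole lists used here. At a q-value of 0.01 or less, 14 LSD1 fed but only 2 LSD1 starved peaks remained, the Zbtb12 promoter site beside Ehmt2 and the 49 bp peak upstream of Kdm4c, and the whole lists gave a ratio of 0.899.

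GR and LSD1 peaks of these genes overlapped about as often as in the whole lists. Of the 20 GR fed peaks, 12 (60%, 36.1 to 80.9%) were overlapped by an LSD1 fed peak, beside 48.3% of the whole GR fed list, and of the 36 GR starved peaks, 4 (11.1%, 3.11 to 26.1%) by an LSD1 starved peak, beside 14.7%. LSD1 fed peaks were overlapped by GR fed peaks and by GR starved peaks at 12 of 20 each (60%, 36.1 to 80.9%), beside 42.8% and 55.1% of the list. GR fed peaks were found again in GR starved at 15 of 20 sites (75.0%, 50.9 to 91.3%, beside 65.8% of the list), and LSD1 fed peaks in LSD1 starved at 4 of 20 (20.0%, 5.73 to 43.7%, beside 23.1%). Each of these whole-list shares lay within the interval of the enzyme genes. In the other direction, 15 of the 36 GR starved peaks were overlapped by a GR fed peak (41.7%, 25.5 to 59.2%). The share of the whole GR starved list was 24.5%, below that interval. Of the 24 LSD1 starved peaks, 4 were overlapped by an LSD1 fed peak (16.7%, 4.74 to 37.4%), beside 5.85% of the list. Neighbouring peaks are not independent, and the intervals cover counting error only.

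H3K9me2, the mark that several of these enzymes place or remove, was called in all 10 windows in fed muscle, with 140 short peaks, where 95.5% of all genes had at least 1. Numbers ranged from 4 at Suv39h2 to 27 at Kdm4c, with 25 each at Ehmt1 and Jmjd1c, 15 at Kdm4b, 10 at Kdm3b, 9 at Ehmt2 and Kdm3a, and 8 at Setdb1 and Kdm4a, so that the 3 longest genes had the most. The median was 13.2 peaks per 100 kb of window, beside 8.33 over all genes. Most of them, 99, lay in introns. The peaks had a median length of 93.5 bp and folds of 2.78 to 4.70, the highest in Jmjd1c. A peak was centred on the promoter of 6 genes, where 22.3% of all genes had one, with 3.20-fold at Ehmt2, 3.48-fold at Setdb1, 3.29-fold at Jmjd1c, 3.70-fold at Kdm4a, 3.10-fold at Kdm4b and, at both promoters of Kdm4c, 3.44-fold and 3.00-fold. All 7 of these promoter peaks had q-values above 0.01. In starved muscle, 1 H3K9me2 peak was left in the 10 windows, a 49 bp peak of 4.00-fold in intron 18 of Ehmt1, where 10.2% of all genes had a peak, and no promoter held one, where 0.21% of all genes did. None of the 140 fed peaks was overlapped by a starved peak, which allows a share of up to 2.60%, beside 0.293% of the whole list. The ratio of 0.00714 (0.00018 to 0.0405) compares with 0.0386 for the whole lists, and both lay on the same side of 1.

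H3K9me1 went the other way in number. In fed muscle 2 genes had a peak, where 38.0% of all genes did, namely 4.72-fold in intron 8 of Setdb1 and 4.53-fold in intron 20 of Kdm3b. In starved muscle 8 genes had 20 peaks, where 65.6% of all genes had at least 1, with 4 at Jmjd1c, 3 each at Suv39h2, Kdm3a and Kdm4c, 2 each at Ehmt1, Ehmt2 and Kdm3b, and 1 at Kdm4b. Setdb1 and Kdm4a had none. The highest was 5.59-fold in exon 8 of Jmjd1c. A promoter peak was found in starved muscle at Kdm3a, with 3.46-fold and centred 717 bp upstream, where 3.10% of all genes had one, and at no gene in fed muscle, where 1.94% did. Their lengths were short for a histone mark, with 9 of the 20 starved peaks at 49 bp, the shortest length in that list. The ratio of peak numbers was 10.0 (2.43 to 88.2), beside 2.68 for the whole lists. With 2 fed peaks the counting interval is wide.

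GR and LSD1 peaks of the enzyme genes met the fed mark in part. H3K9me2 fed peaks overlapped 3 of the 20 GR fed peaks (15%, 3.21 to 37.9%, beside 16.5% of the list) and 6 of the 20 LSD1 fed peaks (30%, 11.9 to 54.3%, beside 16.8%). In starved muscle no GR or LSD1 peak of these genes was overlapped by an H3K9me2 peak, in 0 of 36 and 0 of 24. The exact intervals reach 9.74% and 14.2%, beside 1.17% and 0.831% of the lists. Only 1 H3K9me2 starved peak, of 49 bp, lay in the 10 windows, so both counts were nearly fixed beforehand. They cannot tell whether GR or LSD1 met the mark in starved muscle. Across conditions, the fed mark met 9 of the 36 GR starved peaks (25.0%, 12.1 to 42.2%), beside 13.2% of the list.

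Of 12 further H3K9 enzyme genes, 6 had a GR fed, 10 a GR starved, 7 an LSD1 fed and 11 an LSD1 starved peak in the window, where 43.1%, 66.5%, 51.1% and 83.7% of all genes did. Promoter peaks were found at 2, 6, 3 and 3 of them in the same order, beside 13.4%, 23.3%, 22.4% and 16.2% of all genes. Kdm1b, which encodes the paralogue of LSD1, was the one with a promoter peak in all 4 lists. Of 10 genes for H3K9 readers and partner proteins, 8, 10, 10 and 9 had a peak in the window, and 3, 6, 8 and 3 in the promoter, with all 4 at Cbx3, which encodes heterochromatin protein HP1 gamma, a reader of methylated H3K9. Each gene of both lists had at least 1 GR or LSD1 peak in its window.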

How the data were processed

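Peak lists were used as deposited. The authors mapped single-end reads to mm10 (GRCm38), kept uniquely mapped reads and called broad peaks per library with MACS2 against input; per the labels, reads were converted with bcl2fastq 2.20.0.422. Each deposited list gives a fold enrichment over input (a ratio) and −log10 of p-values and q-values per peak. These are the authors' values. A deposited score was not used. The methods state a false discovery rate of 0.01, which the lists exceed, and a blacklist for a human genome. The LSD1 starved list holds 66332 peaks against 16616 in LSD1 fed, whereas the text of the study reports far fewer LSD1 peaks after starvation. The direction of change in LSD1 peak number is thus opposite to the one reported, and the reason is unknown. The age of mice given in the study also differs from the labels. Input reads were not analysed here, and library depth is unknown.

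Groups came from the labels. Midpoints of peaks were counted in windows and promoters of curated RefSeq genes (GRCm38.p6), with exon and intron numbers from the longest curated transcript. Overlap required 1 bp. Intervals are exact Clopper-Pearson 95% intervals. With 1 library per group no test was made and no p-value was computed. Motifs were searched in GRCm38 sequence from RefSeq. Counting was tested on simulated peaks. All 10 genes are named, each with promoter peaks and the highest GR and LSD1 peak per condition. From the 2 further gene lists, a gene was to be named only with a promoter peak in all 4 GR and LSD1 lists, or with no such peak in its window. Kdm1a, named at the end, was picked outside this rule after the values were seen, and Uhrf1 is named as a neighbour of Kdm4b. Members, lists and tests were chosen with earlier results of these data known. Alternatives were q-value limits of 0.01 and 1e-05, windows of 30 and 10 kb around the TSS, peaks whose nearest TSS is that of the gene, wider promoters, promoters touched by a peak outside its centre, equally long lists, an overlap of 50% of the shorter peak and predicted transcripts. Python 3.11.15, numpy 2.4.6, pandas 2.3.3, scipy 1.17.1 and matplotlib 3.10.9 were used.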

Additional observations from a re-analysis of the deposited data

Results flagged for a closer look

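In the windows of the 10 enzyme genes, the starved to fed ratio of peak numbers was 10.0 for H3K9me1 and 0.00714 for H3K9me2, so the libraries of these marks moved in opposite directions. The whole lists moved in the same directions, with ratios of 2.68 and 0.0386. The H3K9me1 ratio rests on 2 fed peaks. At a q-value of 0.01 or less it was 4.5, from 2 fed and 9 starved peaks, where the whole lists had 2.94. No test of this difference was possible with 1 library per group, and for both marks condition and library code cannot be told apart.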

How the results depend on the processing

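Library depth is unknown and each group was 1 library, so these values describe how the peak lists respond to other settings. Of 134 alternative values, 89 were labelled as the same as the reported one, 41 as moved and 4 ratios as turned in direction. A value labelled as the same can still differ clearly. At a q-value of 0.01 or less the H3K9me1 ratio was 4.5, beside 10.0 as reported. The share of LSD1 fed peaks found again in LSD1 starved was 7.14% there, beside 20.0%.

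The starved to fed ratio of GR turned from 1.80 to 0.875 at a q-value of 0.01 or less and to 0.40 at 1e-05. That of LSD1 turned from 1.20 to 0.143 at 0.01 and to 0.75 within 10 kb of a TSS, and that of H3K9me2 was 0 at 0.01, within 30 kb, within 10 kb and for nearest TSSs. The ratios of LSD1 and of both marks at 1e-05, and of H3K9me1 within 10 kb, are not given where no fed peak was left. At 0.01 the share of GR starved peaks overlapped by LSD1 was 0% and that of GR fed peaks found again in GR starved was 50%.

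At 1e-05 the number of genes with a peak in the window was 3 in GR fed (15.2% of all genes), 2 in GR starved (11.3%), 1 in H3K9me1 starved (2.11%) and 0 in the other lists (at most 1.86%), and with a promoter peak 2 in GR fed (1.32%), 1 in GR starved (1.17%) and 0 elsewhere (at most 0.141%). At 0.01, window counts were 2 for LSD1 starved (24.0%) and 0 for H3K9me2 starved (1.94%), and promoter counts 0 for LSD1 starved (2.99%), H3K9me1 starved (1.37%) and H3K9me2 fed (5.47%). With lists of equal length, window counts were 3 for LSD1 starved (44.8%) and 4 for H3K9me2 fed (22.2%), and promoter counts 1 for GR starved (9.48%) and LSD1 starved (4.35%) and 0 for H3K9me1 starved (0.978%) and H3K9me2 fed (0.787%). The GR starved promoter count was 7 with promoters reaching 1000 bp downstream (31.3%), 7 with any overlap (28.9%), and 5 with predicted transcripts (18.9%), a setting chosen after seeing the data. Window counts for H3K9me1 fed were 1 within 30 kb (33.1%), 0 within 10 kb (14.3%) and 1 for nearest TSSs (22.7%). Those for H3K9me2 starved were 0 in each of these (7.65%, 2.7% and 6.95%). H3K9me1 starved had 3 within 10 kb (29.8%), close to the share of all genes. The window counts of GR fed, GR starved and LSD1 fed stayed within 1.5 times the reported ones at every setting except 1e-05. For the counts that moved with the q-value or the list length, fewer peaks were left by construction. For the other changes the cause was not tested.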

Other observations

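Upstream of Jmjd1c, predicted RefSeq transcripts start at chr10:67096351, 30.7 kb before the first curated TSS and so just outside its window. The curated promoter of the neighbouring gene Reep3 lies beside that position, and the H3K9me2 fed peak at chr10:67097454-67097503 was centred in it. All 4 GR and LSD1 lists had a peak within 1000 bp of the predicted start. Whether these peaks belong to Reep3 or to Jmjd1c was not tested. GR fed had 2.87-fold (centred 158 bp downstream), GR starved 2.94-fold (387 bp), LSD1 fed 4.04-fold (251 bp) and LSD1 starved 5.07-fold (681 bp). The LSD1 starved value exceeds that of each LSD1 starved peak in the 10 windows, and GR fed and GR starved were close to each other here.

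Kdm1a, the gene of LSD1 itself, was looked at after the values were seen. Its promoter held a peak in GR fed, LSD1 fed and LSD1 starved, where 13.4%, 22.4% and 16.2% of all genes did. Its window held 10 LSD1 starved peaks but 1 LSD1 fed peak, beside medians of 2 and 1 over all genes. The window held 1 GR fed peak and 0 GR starved peaks, beside medians of 0 and 1. The whole LSD1 starved list was 3.99 times as long as the fed one, and some of the further enzyme genes had more LSD1 starved peaks.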
